A study of Homo sapiens with 4 samples.

Results

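Glycolysis and the response to hypoxia-inducible factor (HIF) were described here through 38 genes chosen by name in DU145, an established prostate cancer cell line, after knockdown of TAZ. The table held a row for 37 of them, among 19871 rows with a gene symbol, and CA9, a carbonic anhydrase of the cell surface, was not analysed here. The genes fell into 21 glycolytic enzymes and transporters, 14 analysed of 15 other HIF-induced genes, and the HIF alpha subunits HIF1A and EPAS1. All 37 reached a normalized read count of at least 1 in at least 2 libraries and were tested among 17737 genes. Bulk RNA was sequenced in 4 libraries, of which 2 came from DU145 cells with TAZ knockdown and 2 from DU145 cells with the pLKO control. pLKO is a lentiviral vector for short hairpin RNAs. The series names 2 independent TAZ hairpins without tying either to a knockdown library, so hairpin and library cannot be told apart. All cells were grown in DMEM with fetal bovine serum, and the labels give no oxygen level, time after infection or clone. The stated purpose was to find targets of TAZ, a transcriptional coactivator of the Hippo pathway.

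Recovered reads numbered 12078623 to 14814918 in the knockdown libraries and 11687727 to 13681392 in the controls. TAZ is the product of WWTR1, which had 839 and 719 normalized counts in the knockdown libraries, against 2508 and 3626 in the controls, a log2 fold change of -1.96 ± 0.20 (SE; limma adjusted p = 0.0086). edgeR and DESeq2 on the recovered reads also called WWTR1 (adjusted p = 0.0195 and 1.92e-14), as did the authors' deposited table (adjusted p = 1.93e-14). With any 1 library left out the limma log2 fold change was -2.22 to -1.69, and limma no longer called it. Of 5 markers of the line's epithelial type (KRT8, KRT18, EPCAM, EGFR and CDH1) all were present, with a summed normalized count of 20692 to 31725 in knockdown and 31609 to 44308 in controls. The sum was carried by the keratins KRT8 and KRT18, whose knockdown values lay below both controls, with 14618 and 8485 counts of KRT8 in knockdown and 18494 and 24944 in controls. EPCAM, EGFR and CDH1 lay above both controls in both knockdown libraries. The 4 endothelial markers summed to 4.17 to 7.97 in knockdown and 9.28 to 23.0 in controls, and the 3 analysed of 5 fibroblast markers to 154 to 169 in knockdown and 52.9 to 104 in controls. Among leukocyte markers, CD68, a lysosomal protein of macrophages, had 1196 and 1016 counts in knockdown and 1251 and 1310 in controls, while PTPRC and LYZ did not pass 0.886 in any library. The part of these marker differences in the results was not tested. Whether the replicate libraries were separate cultures is not stated, so errors and p-values cover only the spread between libraries and that spread may be technical.

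Glycolysis turns glucose into pyruvate in the cytosol. Glucose enters through carriers of the SLC2A family, hexokinase and phosphofructokinase commit it to the pathway, and lactate dehydrogenase and the SLC16A carriers convert pyruvate to lactate and move it across the membrane. Most steps are served by several isoenzymes encoded by separate genes. HIF is a dimer of an oxygen-regulated alpha subunit and the constant partner ARNT. Prolyl hydroxylases of the EGLN family mark the alpha subunit for destruction while oxygen is present, so its control acts mainly on the protein and not on the mRNA. In hypoxia the dimer binds the core letters ACGTG or GCGTG near its target genes, which include glucose carriers, glycolytic enzymes and genes of angiogenesis, mitophagy and matrix synthesis. Many tumour cells run glycolysis also in the presence of oxygen.

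The promoters of a few members are shown because they carry the HIF core letters and because 4 of the 5 belong to the glycolytic steps described next, BNIP3 being the member called in the authors' deposited table. Sequences are from RefSeq on GRCh38.p14, which is not the build named for the alignment (hg19), and each run gives 120 bases that lie before the gene's start site, 5′ to 3′ on the gene's strand. Capitals mark ACGTG on the strand shown or on the other strand, where it reads CACGT, and a capital run CACGTG is a match on each strand. The windows lie at chr11:18394432-18394551 (plus strand) for LDHA, chrX:78104007-78104126 (plus strand) for PGK1, chr16:30064043-30064162 (plus strand) for ALDOA, chr2:74834007-74834126 (plus strand) for HK2 and chr10:131981995-131982114 (minus strand) for BNIP3.
LDHA: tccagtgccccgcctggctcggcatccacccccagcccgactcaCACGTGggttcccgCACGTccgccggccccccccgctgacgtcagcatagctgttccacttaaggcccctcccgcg
PGK1: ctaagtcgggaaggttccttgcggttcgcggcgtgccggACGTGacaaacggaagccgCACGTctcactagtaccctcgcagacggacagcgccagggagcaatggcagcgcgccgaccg
ALDOA: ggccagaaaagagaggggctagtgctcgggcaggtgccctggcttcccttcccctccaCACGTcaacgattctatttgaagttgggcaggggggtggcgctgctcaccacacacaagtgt
HK2: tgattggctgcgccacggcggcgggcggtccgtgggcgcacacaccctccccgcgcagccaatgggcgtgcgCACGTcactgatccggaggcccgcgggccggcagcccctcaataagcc
BNIP3: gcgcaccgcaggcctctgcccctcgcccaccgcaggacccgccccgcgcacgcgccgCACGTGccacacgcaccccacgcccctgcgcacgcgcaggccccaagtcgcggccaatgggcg
Of the 38 genes, 33 had a promoter in the RefSeq table used. SLC2A3, SLC16A1, BNIP3L, VEGFA and NDRG1 were not matched. In the 250 bases before the start site, ACGTG stood on either strand in 13 of these 33 promoters, or 39.4%, against 18.7% of 27305 promoters. GCGTG stood in 12 of 33, or 36.4%, against 31.9% of all promoters, and either core in 21 of 33, or 63.6%, against 43.1%. A promoter with both cores was counted under each, and the cores can share a base. LDHA held the most ACGTG matches, 5, counted on both strands. A match describes letters only. The members were chosen by name, 15 of them as HIF-induced genes, and the 27305 promoters were not limited to genes tested here. These shares therefore carry no test. Distant sites lie outside these windows.

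Glycolytic enzymes and transporters were mostly lower after TAZ knockdown, by modest amounts. Of 21 members, 17 had a lower mean log2 value, against 51% of all genes tested. In 12 of the 21 both knockdown libraries lay below both controls, where 19% of all genes tested did, and in 2 both lay above, where 18.4% did. The median log2 fold change was -0.31, against -0.01 for all genes tested. The controls differed as well, with a median of control 2 minus control 1 of -0.19 in these genes and 0.01 in all genes tested. Against control 2 alone the medians were -0.22 for knockdown 1 and -0.21 for knockdown 2. Against control 1 alone they were -0.29 and -0.37. The counts are a description of genes that share libraries and carry no test. No member passed limma over all genes (smallest adjusted p = 0.596), where 0.0113% of genes were called. An unadjusted p under 0.05 was reached by 3 lower members (HK2, ALDOA and SLC2A1), where 2.72% of all genes tested did, and by 1 higher member, the barely detected SLC2A3, where 4.33% did. The median log2 fold change was -0.17 once the trend of each library with length and GC content of the transcripts was taken out. The members' median transcript was 2827 bases at 54.8% GC, against 3294 bases and 49.8% GC for all genes tested, and the part of length and GC content in the result beyond that removal was not tested. In bulk RNA a change per cell and a change in the mix of cells cannot be told apart.

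**Figure D1:**
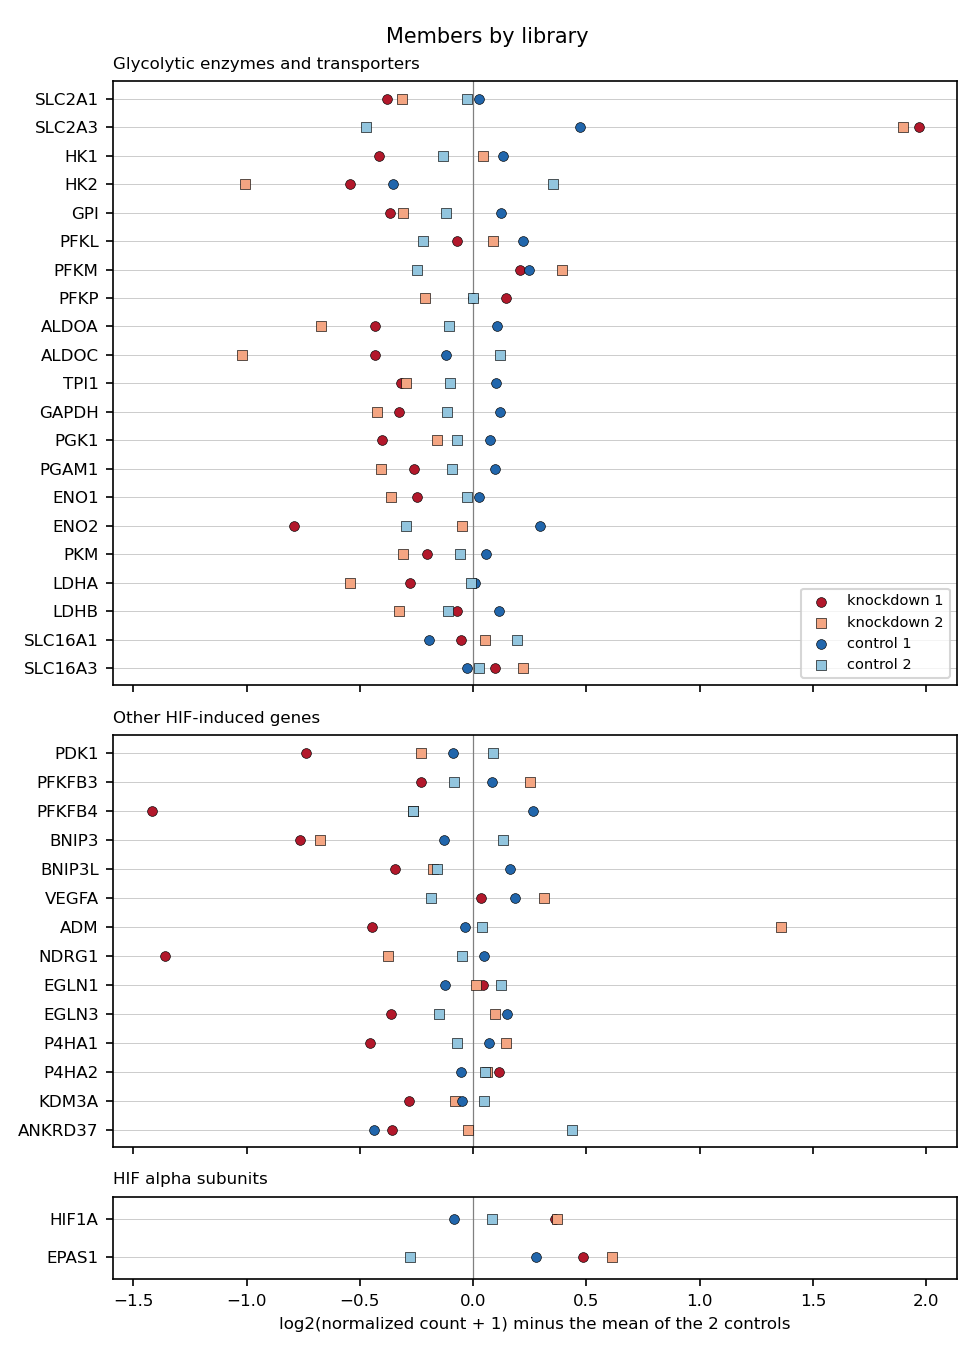
Each row is a gene, and each point is a library's log2(normalized count + 1) minus the mean of the 2 controls, for the knockdown libraries (red) and the controls (blue). Most glycolytic genes have both knockdown points left of both control points, whereas among other HIF-induced genes knockdown 1 often lies far left of knockdown 2.

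Glucose uptake and its first phosphorylation gave unequal values. SLC2A1, the main glucose carrier of most cultured cells, had 3422 and 3581 normalized counts in knockdown, against 4539 and 4377 in controls. The knockdown libraries lay close together and below both controls, at 78.6% of the control mean, and the log2 fold change was -0.35 ± 0.16 (SE; limma adjusted p = 0.707). SLC2A3, a high-affinity carrier of neurons, was near the limit of detection, with 5 and 4 reads in knockdown and 1 and 0 reads in controls, so no fold is given. HK2, the inducible hexokinase that can bind mitochondria, had 680 and 493 counts in knockdown and 775 and 1265 in controls. Knockdown 1 lay just below control 1 while the controls differed by 0.71 on the log2 scale, so its log2 fold change of -0.77 ± 0.24 (SE; limma adjusted p = 0.596) leaned on control 2 and was -0.42 without that library. HK1, the constant hexokinase, had 2697 and 3709 counts in knockdown and 3952 and 3283 in controls, and the groups overlapped.

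In the upper part of the pathway the isomerase and aldolase genes were lower and the phosphofructokinase genes were not. GPI, which converts glucose phosphate to fructose phosphate, had 9494 and 9897 counts in knockdown and 13324 and 11271 in controls (log2 fold change -0.34 ± 0.18, SE; limma adjusted p = 0.730). The 3 phosphofructokinase genes, which encode the liver (PFKL), muscle (PFKM) and platelet (PFKP) subunits of the committed step, had groups that overlapped. Their knockdown means were 99.6, 122 and 98.4% of control, and the log2 fold changes were 0.01 ± 0.18, 0.30 ± 0.20 and -0.03 ± 0.18 (SE). ALDOA, the aldolase of most tissues, had 37042 and 31356 counts in knockdown, against 53758 and 46459 in controls. The groups stood well apart, at 68.2% of the control mean, with a log2 fold change of -0.55 ± 0.22 (SE; limma adjusted p = 0.685). With the length and GC trend removed it was -0.34. ALDOC, the brain aldolase, was low, at 31.9 and 20.8 counts in knockdown and 39.9 and 47.2 in controls, and its groups did not overlap (log2 fold change -0.73 ± 0.39, SE; limma adjusted p = 0.733).

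From triose phosphate to pyruvate every step had a gene whose knockdown libraries lay below both controls. TPI1, triosephosphate isomerase, had 11996 and 12202 counts in knockdown and 16051 and 13962 in controls. GAPDH, the dehydrogenase often used as a loading control, had 64190 and 59963 in knockdown and 87282 and 74144 in controls, or 76.9% of the control mean. PGK1, which makes the pathway's first ATP, had 7375 and 8748 in knockdown and 10263 and 9286 in controls. In each of these 3 genes both knockdown libraries lay below both controls, with log2 fold changes of -0.31 ± 0.18 for TPI1, -0.37 ± 0.23 for GAPDH and -0.28 ± 0.18 for PGK1 (SE; limma adjusted p = 0.751, 0.766 and 0.774). PGAM1, phosphoglycerate mutase, had 5101 and 4610 counts in knockdown and 6529 and 5722 in controls. ENO1, the ubiquitous enolase, had 45123 and 41674 in knockdown and 54668 and 52613 in controls. PKM, pyruvate kinase, had 59287 and 55077 in knockdown and 71148 and 65669 in controls. These 3 also stood apart, at 79.3, 80.9 and 83.6% of the control mean, and none passed limma (adjusted p = 0.714, 0.794 and 0.843). With the length and GC trend removed the log2 fold changes of TPI1, GAPDH, ENO1 and PKM were -0.13, -0.19, -0.14 and -0.11, while those of PGK1 and LDHA were -0.42 and -0.44. ENO2, the neuronal enolase, had 772 counts in knockdown 1 and 1293 in knockdown 2, against 1643 and 1088 in controls, and its groups overlapped.

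At the lactate end, LDHA, the subunit that favours lactate production, had 20305 and 16888 counts in knockdown and 24797 and 24497 in controls. The controls were nearly equal and both knockdown libraries lay below them, at 75.5% of the control mean (log2 fold change -0.41 ± 0.19, SE; limma adjusted p = 0.714). LDHB, the subunit that favours pyruvate, had 6722 and 5616 in knockdown and 7629 and 6528 in controls, and the groups overlapped. The lactate carriers did not share the lower values. SLC16A3, the exporter of highly glycolytic cells, had 5823 and 6345 counts in knockdown, against 5357 and 5549 in controls, above both controls by a small amount (log2 fold change 0.16 ± 0.16, SE; limma adjusted p = 0.869). SLC16A1, the widely expressed carrier, had 1705 and 1837 in knockdown and 1549 and 2026 in controls.

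**Figure D2:**
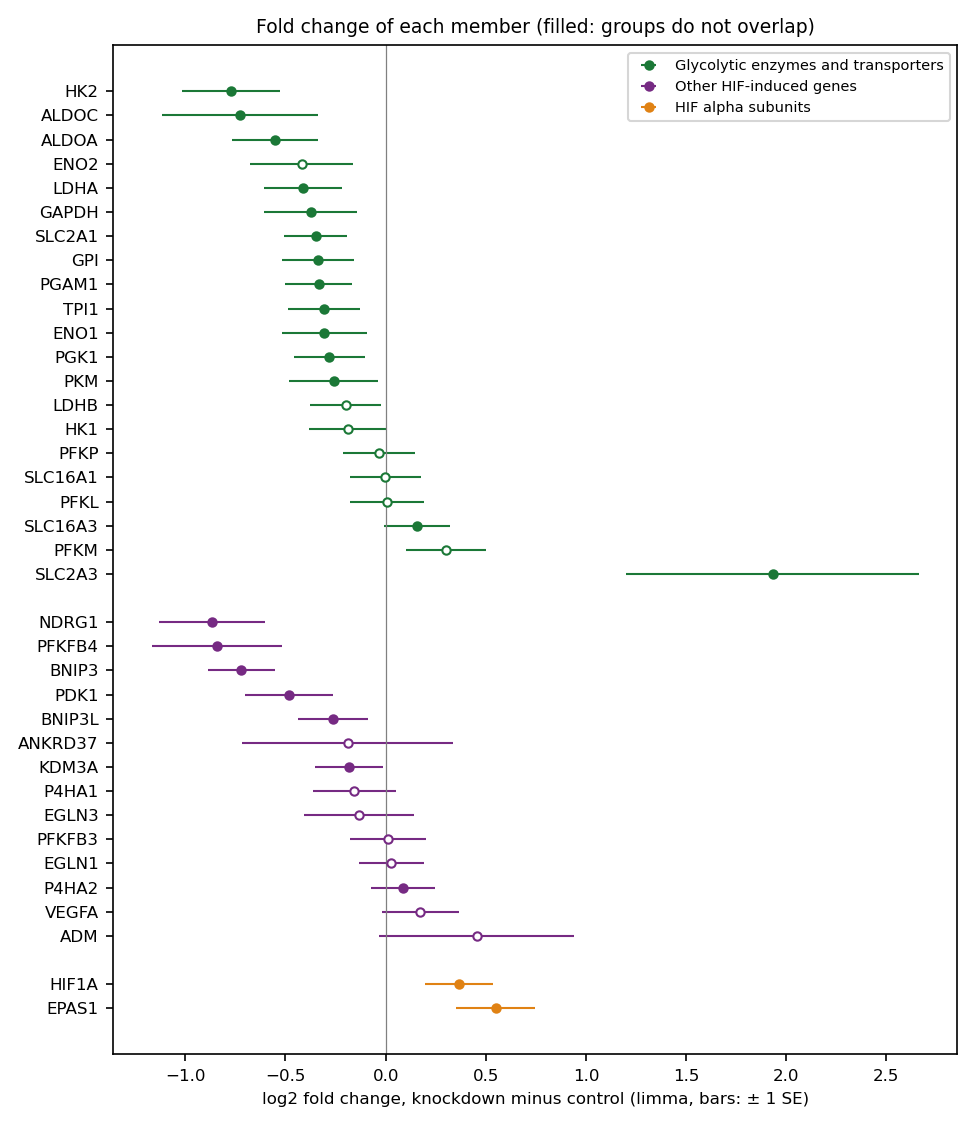
Each point is a gene's log2 fold change, knockdown minus control, with a bar of ± 1 SE from limma, filled where the 2 knockdown libraries do not overlap the 2 controls. Glycolytic genes from HK2 at -0.77 to PKM at -0.26 form a run of values below 0, HIF1A and EPAS1 lie at 0.36 and 0.55, and the far right value of SLC2A3 rests on 5 and 4 reads in knockdown and 1 and 0 in controls.

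Together the 21 glycolytic genes took 2.23 and 2.17% of the recovered reads in knockdown, against 2.95 and 2.51% in controls, a mean of 2.20 ± 0.04% and 2.73 ± 0.31% (SD, n = 2 each). The groups did not overlap. With 2 libraries against 2 an exact two-sided permutation test of a single value cannot go below 0.333. The sum is carried by GAPDH, PKM, ENO1 and ALDOA, the members with the highest levels per transcript length. No length or GC trend was removed from these shares. With that trend removed the log2 fold changes of GAPDH, PKM, ENO1 and ALDOA were -0.19, -0.11, -0.14 and -0.34. GAPDH stood at 2614 and 2545 RPKM, reads scaled to transcript length and library depth, in knockdown and 3674 and 2946 RPKM in controls.

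The isoenzyme with the most reads at each step was the same in every library. Shares were taken over the members of a step only, so further isoenzymes such as ENO3 were left out. Per transcript length, taken from the longest coding transcript, ALDOA gave over 99.9% of aldolase reads in every library, from 99.91 to 99.94%. ENO1 gave 98.6 and 97.5% of ENO1 and ENO2 reads in knockdown and 97.6 and 98.3% in controls. PFKP led the phosphofructokinases with 70.1 and 62.0% in knockdown and 64.3 and 71.1% in controls. HK2 was the minor hexokinase, with 14.87 and 8.43% in knockdown and 11.97 and 21.07% in controls, and the groups overlapped in all of these shares. LDHA gave 65.8 and 65.7% of lactate dehydrogenase reads in knockdown and 67.4 and 70.5% in controls, so its share was lower in both knockdown libraries by a few percent of the step. SLC16A3 gave 75.6 and 75.8% of the reads of both lactate carriers in knockdown and 75.8 and 71.3% in controls.

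**Figure D3:**
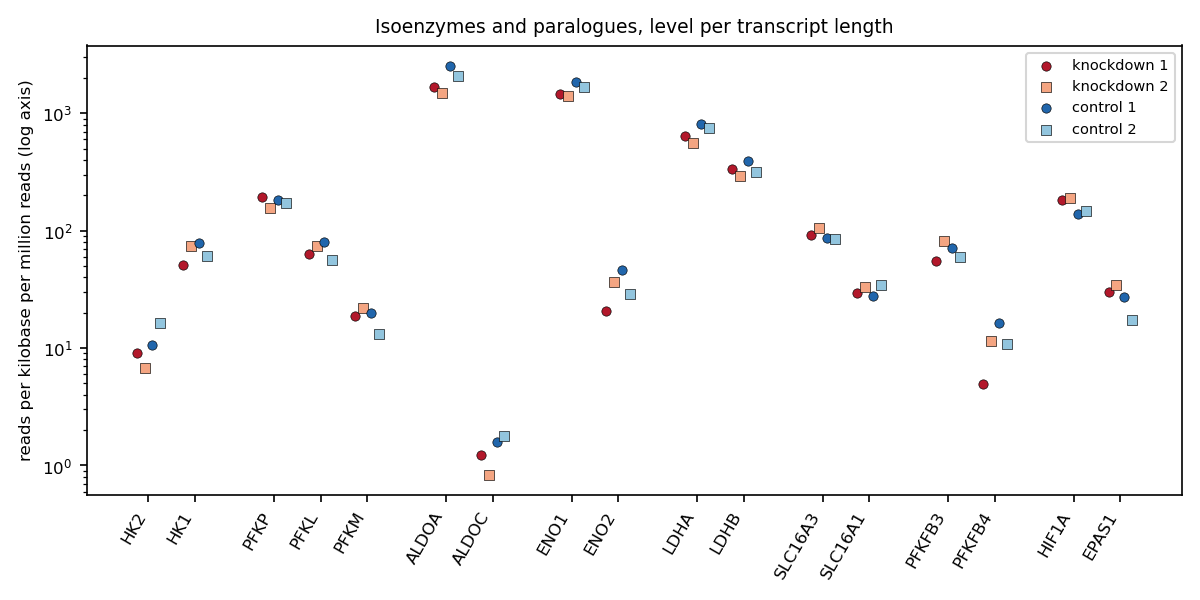
Levels per transcript length, in RPKM on a log axis, of isoenzymes and paralogues in each knockdown library (red) and control (blue), ordered by step. ALDOA and ENO1 exceed ALDOC and ENO2 by more than the spread of the 4 libraries, and HIF1A exceeds EPAS1 in every library.

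The other HIF-induced genes were split, and BNIP3 was the member called in the authors' deposited table. Of 14 members, 9 had a lower mean, 6 lay below both controls in both knockdown libraries (19% of all genes tested), 1 lay above (18.4%) and 7 overlapped. With TMM scaling or scaling to total reads 4 lay below, not 6. With the deposited scaling the median log2 fold change was -0.17. It was -0.0031 without knockdown 1 and -0.36 without knockdown 2. With knockdown 1 alone 10 of the 14 lay below both controls, where 31% of all genes did, and with knockdown 2 alone 6 did, where 34.9% of all genes did. That call was the only one among the 37 members in the authors' deposited table, where 0.537% of genes with an adjusted p were called and 0.0868% were called lower. No member passed limma (smallest adjusted p = 0.355), while 4 of the 14 had an unadjusted p under 0.05, all lower, where 2.72% of all genes tested did. edgeR on the recovered reads called 0 of the 37 members, where it called 0.0142% of genes, and 8 members had an unadjusted p under 0.05, where 7.61% of genes did.

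BNIP3 and BNIP3L encode related receptors of the outer mitochondrial membrane that recruit mitochondria to autophagosomes. BNIP3 had 2332 and 2476 counts in knockdown, against 3621 and 4333 in controls, a mean of 2404 ± 102 and 3977 ± 504 (SD, n = 2 each), or 60.5% of control. Both knockdown libraries were close to each other and far below both controls. In the authors' deposited table the log2 fold change was -0.60 ± 0.16 (SE) with an adjusted p of 0.0362, and in limma it was -0.72 ± 0.17 (SE) with an adjusted p of 0.355. DESeq2 on the recovered reads, which called 0.542% of genes, also called it (adjusted p = 0.0357), as it did without control 1 (adjusted p = 0.0404, adjusted over only the 1749 genes its filter left), but not without control 2, knockdown 1 or knockdown 2 (adjusted p = 0.359, 0.633 and 1) or with the length and GC trend removed (adjusted p = 0.0966). GENCODE 29 lists 39 pseudogenes named after BNIP3, and no source used here states how reads matching several loci were counted. BNIP3L had 1487 and 1671 counts in knockdown and 2113 and 1690 in controls, so knockdown 2 and control 2 were nearly equal (log2 fold change -0.26 ± 0.17, SE; limma adjusted p = 0.783). Per transcript length BNIP3 made up 64.9 and 63.6% of the reads of both receptors in knockdown and 66.9 and 75.1% in controls.

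Regulators that steer pyruvate and glycolytic flux differed among themselves. PDK1, the kinase that shuts pyruvate out of the mitochondrial citrate cycle, had 254 and 363 counts in knockdown and 400 and 452 in controls. All knockdown values were below the controls, knockdown 1 the more so (log2 fold change -0.48 ± 0.22, SE; limma adjusted p = 0.707). It was -0.85 with the length and GC trend removed, where its longest transcript of 14193 bases entered. PFKFB3 and PFKFB4 make the sugar bisphosphate that activates phosphofructokinase. PFKFB4 had 232 counts in knockdown 1 and 517 in knockdown 2, against 749 and 518 in controls. Knockdown 2 equalled control 2 within a count, and the log2 fold change of -0.84 ± 0.32 (SE; limma adjusted p = 0.684) was -0.27 without knockdown 1. PFKFB3 had 3305 and 4607 in knockdown and 4106 and 3654 in controls, with a log2 fold change of 0.01 ± 0.19 (SE). Per transcript length PFKFB4 gave 8.14 and 12.4% of PFKFB3 and PFKFB4 reads in knockdown and 18.7 and 15.2% in controls.

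NDRG1, a stress-induced protein raised by hypoxia, had 1149 and 2276 counts in knockdown and 3053 and 2853 in controls. Both knockdown libraries lay below the controls, and knockdown 1 was far below knockdown 2. The log2 fold change was -0.87 ± 0.26 (SE; limma adjusted p = 0.567), and it was -0.37 without knockdown 1 and -1.36 without knockdown 2, when DESeq2 on the recovered reads called it and 0.0204% of genes. The secreted factors did not share this. VEGFA, the angiogenic growth factor, had 6921 and 8403 counts in knockdown and 7690 and 5950 in controls, and its groups overlapped (log2 fold change 0.17 ± 0.19, SE; limma adjusted p = 0.888). ADM, the vasodilator peptide adrenomedullin, had 41.6 counts in knockdown 1 and 148 in knockdown 2, against 55.7 and 58.7 in controls. Knockdown 2 alone was high, and its mean of 94.8 ± 75.2 in knockdown and 57.2 ± 2.12 in controls (SD, n = 2 each) describes neither knockdown library.

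The hydroxylases, KDM3A and ANKRD37 had small fold changes. EGLN1, the main prolyl hydroxylase of HIF alpha, had 1842 and 1806 counts in knockdown and 1642 and 1947 in controls. EGLN3, its hypoxia-induced relative, had 99.2 and 137 in knockdown and 142 and 115 in controls. P4HA1 and P4HA2 are catalytic subunits of collagen prolyl hydroxylase, with 797 and 1211 counts in knockdown and 1150 and 1042 in controls for P4HA1, and 1319 and 1274 in knockdown and 1176 and 1265 in controls for P4HA2. The groups overlapped in EGLN1, EGLN3 and P4HA1, and P4HA2 lay just above both controls. KDM3A, a histone demethylase, had 763 and 879 in knockdown and 899 and 963 in controls, below both controls by a small amount. ANKRD37, an ankyrin repeat protein, was low, at 8.86 and 11.5 counts in knockdown and 8.35 and 16.1 in controls. The log2 fold changes of these 6 genes ran from -0.19 to 0.09, and their limma adjusted p from 0.854 to 0.987.

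The mRNAs of the HIF alpha subunits were higher in knockdown, opposite to most of the glycolytic genes. HIF1A, the subunit most tied to glycolytic genes, had 9419 and 9478 counts in knockdown, against 6926 and 7772 in controls. The knockdown libraries were nearly equal and above both controls, at 129% of the control mean, with a log2 fold change of 0.36 ± 0.17 (SE; limma adjusted p = 0.713). The HIF1A transcript had 36.4% GC, against a median of 54.8% in the glycolytic genes. Over all settings, removal of the length and GC trend among them, the log2 fold change of HIF1A was 0.25 to 0.45. EPAS1, which encodes the HIF-2 alpha subunit, had 2052 and 2243 in knockdown and 1779 and 1208 in controls, at 144% of the control mean, with a log2 fold change of 0.55 ± 0.20 (SE; limma adjusted p = 0.650). Without control 2 the log2 fold change of EPAS1 was 0.27. Neither passed a test over all genes, and protein was not measured. Per transcript length HIF1A gave 85.7 and 84.7% of the reads of both subunits in knockdown and 83.6 and 89.4% in controls. GENCODE 29 places the antisense gene HIF1A-AS1 over HIF1A exons, and the library kit as described does not mark strand.

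**Figure D4:**
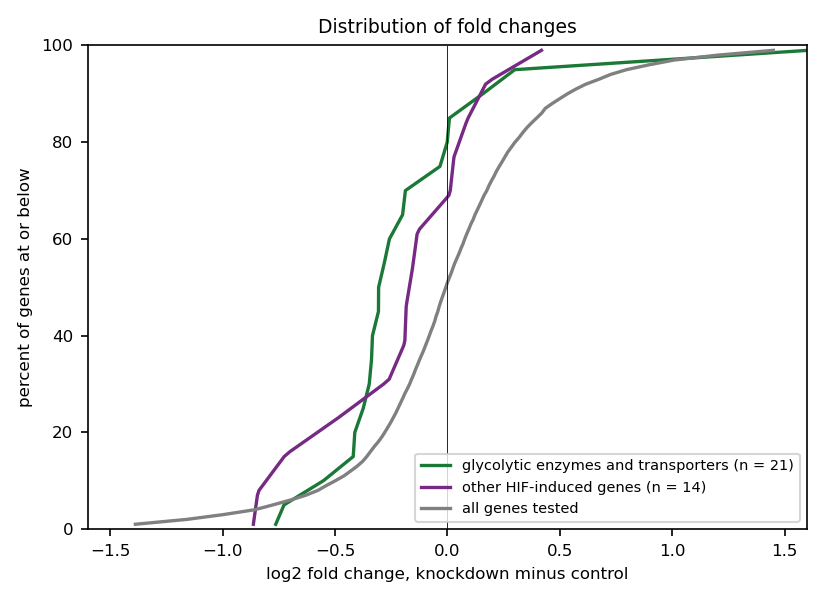
Cumulative distribution of log2 fold changes, knockdown minus control, for glycolytic enzymes and transporters (green), other HIF-induced genes (purple) and all genes tested (grey). The curves cross 50% at -0.31, -0.17 and -0.01. The top of the glycolytic curve is SLC2A3 alone, which had few reads.

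In many of the other HIF-induced genes knockdown 2 lay above knockdown 1. Knockdown 2 exceeded knockdown 1 by at least 0.3 on the log2 scale in 8 of the 14 HIF-induced genes, where 22% of all genes tested did, and knockdown 1 exceeded knockdown 2 by that much in 0 of 14, where 21.7% did. The 8 genes were PDK1, PFKFB3, PFKFB4, ADM, NDRG1, EGLN3, P4HA1 and ANKRD37, of which ANKRD37 had only 11 reads in knockdown 2 and 10 in knockdown 1. The median difference, knockdown 2 minus knockdown 1, was 0.40 in these 14 genes, -0.07 in the 21 glycolytic genes and 0.00063 in all genes tested, while control 2 minus control 1 had medians of -0.01, -0.19 and 0.01. A separate list of 32 further HIF-induced genes leaned the same way, with 15 higher in knockdown 2 and 4 higher in knockdown 1 by at least 0.3, and a median of 0.19. Among glycolytic genes ENO2 and HK1 exceeded the same limit, by 0.74 and 0.46, and HK2, PFKP and ALDOC lay on the other side, at -0.46, -0.36 and -0.59. The widest gaps among the members were those of ADM, PFKFB4 and NDRG1, at 1.81, 1.15 and 0.99. Each side of these differences is 1 library and they were looked at after the values were seen, so they carry no test. BNIP3, SLC2A1, GPI, TPI1 and HIF1A were close in both knockdown libraries, with differences of 0.09, 0.07, 0.06, 0.02 and 0.01.

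**Figure D5:**
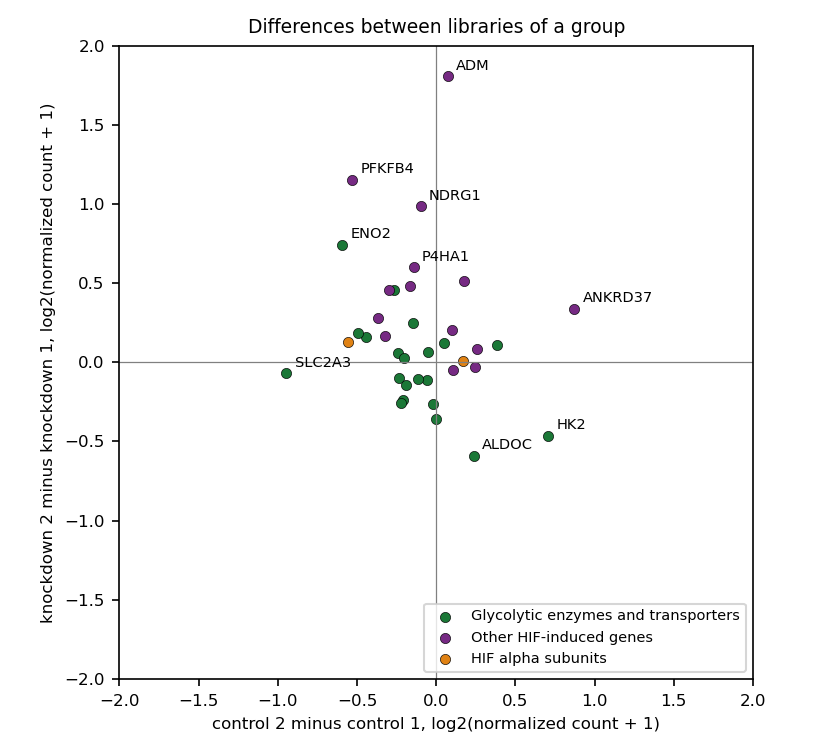
Each point is a gene, with control 2 minus control 1 on the x axis and knockdown 2 minus knockdown 1 on the y axis, both in log2(normalized count + 1). The differences share no library. ADM, PFKFB4 and NDRG1 lie at 1.81, 1.15 and 0.99 on the y axis, and the glycolytic genes lie between -0.59 (ALDOC) and 0.74 (ENO2).

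The separation from controls was set beside the promoter letters shown above. Of 8 tested glycolytic genes with ACGTG before the start site, 7 lay below both controls, and of 11 without it 5 did. The median log2 fold changes were -0.42 and -0.20. Among other HIF-induced genes 1 of 4 with the letters and 3 of 7 without them lay below both controls. Over all genes tested with a promoter the shares below both controls were 20.8% of 2737 with ACGTG and 18.5% of 9531 without it. These counts are a description of a few genes and carry no test.

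Further genes of the HIF and glucose pathways had median log2 fold changes nearer to that of all genes, and their counts are read against the 19% of all genes below and 18.4% above both controls. Of 13 regulators of HIF, 3 lay below and 2 above both controls, with a median log2 fold change of 0.03. CITED2, which competes with HIF for its coactivators, had 934 and 890 counts in knockdown and 1150 and 1187 in controls (log2 fold change -0.36 ± 0.16, SE; limma adjusted p = 0.707). HIF3A was at 2 and 0 reads in knockdown and 9 and 2 in controls, too few for a fold. HIF3A counts among the 3 below. EGLN2, at 6 and 2 reads in knockdown and 1 and 1 in controls, counts among the 2 above. Of 32 further HIF-induced genes, 7 lay below and 3 above both controls, with a median of -0.11. DDIT4, an inhibitor of the growth kinase mTORC1, had 1164 and 1475 counts in knockdown and 2602 and 1583 in controls (log2 fold change -0.63 ± 0.23, SE; limma adjusted p = 0.652). HMOX1, heme oxygenase, had 1535 and 946 in knockdown and 1828 and 1871 in controls (log2 fold change -0.62 ± 0.22, SE; limma adjusted p = 0.637). Of 37 tested genes of other glucose metabolism, out of 40 listed, 6 lay below and 6 above both controls, with a median of -0.06. The 6 above include PKLR and SLC16A7, with at most 4 reads in any library. The 6 below include SLC2A4, with at most 22. ENO3, the muscle enolase, had 136 and 68.8 counts in knockdown and 154 and 162 in controls (log2 fold change -0.70 ± 0.32, SE; limma adjusted p = 0.713). SLC2A4, the insulin-responsive glucose carrier, had 8 and 1 reads in knockdown and 14 and 22 in controls. No gene of the 3 lists passed limma, edgeR or DESeq2 over all genes, and 1, 2 and 1 of them had an unadjusted limma p under 0.05, all lower, where 2.72% of all genes tested did.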

How the data were processed

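RNA-seq of 4 DU145 libraries (2 with TAZ knockdown, 2 with pLKO) was analysed. Per the file headers and values, the authors deposited a signal per gene and library, read counts divided by a size factor, beside the columns of a DESeq2 table: the mean signal, log2 fold change and standard error, the Wald score, and raw and adjusted p-value. The deposited log2 fold changes are smaller than the ratio of the means and match DESeq2 with a prior on fold changes within 0.01. The submitters' processing notes name STAR, DESeq2 and hg19 without a role, and no source used here states the annotation or read counter. The described kit keeps no strand, so opposite-strand overlaps cannot be told apart (PFKM with SENP1, TPI1 with SPSB2, SLC16A3 with CSNK1D, BNIP3L with PNMA2 and ANKRD37 with UFSP2, in GENCODE 29). GENCODE 29 also lists 62 pseudogenes named after GAPDH and 13 after PGAM1, so single values of these genes are uncertain.

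In each library 100% of values were whole multiples (within 0.001 reads) of the smallest value above 0, which gave the reads back. Of 19897 rows, 26 with symbols turned into dates were left out (0.153 to 0.191% of reads). limma (3.58.1, R 4.3.3) with eBayes and an intensity trend was fitted to log2(value + 1) of the 17737 rows with a value of at least 1 in at least 2 libraries, without a block, with Benjamini-Hochberg adjustment over all rows and a threshold of 0.05. Fold changes are on that scale, which understates changes of low genes. edgeR (4.0.16, quasi-likelihood) and DESeq2 (1.42.0) on the recovered reads were alternatives. Length and GC content came from the longest protein-coding transcript of GENCODE 29, found for 15023 rows and all 37 members, and were removed as splines with 4 degrees of freedom. limma and edgeR were also run on simulated counts whose changes were larger than those of nearly all members. That check does not show how well changes of the members' size are found. Members, lists and alternatives were chosen with earlier results of these data known. Values per library are given for members called by any tool, members whose groups did not overlap with a log2 fold change of at least 0.3 in size, and 10 members fixed by name (SLC2A1, HK2, LDHA, PGK1, VEGFA, CA9, NDRG1, PDK1, HIF1A and EPAS1). Other members' values, and the comparison of the knockdown libraries, were added after the values were seen. From the further lists the 2 genes with the smallest limma p were named, and EGLN2, PKLR and SLC16A7 for their few reads.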

Additional observations from a re-analysis of the deposited data

How the results depend on the processing

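The median log2 fold change of the glycolytic genes stayed below 0 under every setting tried, from -0.35 to -0.21 when single libraries were left out and -0.17 with the length and GC trend removed. That of the other HIF-induced genes ranged from -0.36 to -0.0031 without single libraries. The number of them below both controls then ranged from 6 to 10, against 13 to 16 for the glycolytic genes. Of all genes 31 to 37% lay below there, since fewer libraries make separation easier. With all libraries kept, 6 of the other HIF-induced genes lay below, but 4 with TMM scaling and 4 with scaling to total reads. For the glycolytic genes the numbers were 12, 12 and 11. The share of all genes below both controls was not taken under these other scalings. limma called 0 members whichever library was left out, and 1 member (BNIP3) was called when DESeq2 replaced it. The BNIP3 log2 fold change in DESeq2 was -0.48 to -0.69 without single libraries, -0.55 after removal of the length and GC trend, and -0.56 with the replicate block, and the 1 call ended (0 members) under the last 2 settings and without control 2 or knockdown 1. Without knockdown 2 BNIP3 was not called (adjusted p = 1) and 1 other member, NDRG1, was. DESeq2 itself was planned, and its repeats without single libraries, with the block and with the trend removed were chosen after the data were seen.

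The replicate numbers of the groups are not said to mark a shared culture, and same-numbered libraries deviated together with a correlation of -0.04 across the tested genes and -0.12 across genes with a mean of at least 100. With the replicate block limma called 0 members. With the pairing crossed, a setting chosen after the data were seen, limma called 4 members, BNIP3, HK2, NDRG1 and PFKFB4, and 1.36% of all genes.

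Directions turned in 11 members, in ADM with knockdown 2 left out and otherwise in members with a log2 fold change of less than 0.2 in size. PFKL was at -0.0015 with edgeR, -0.0051 with DESeq2 and -0.21 to 0.23 without single libraries. SLC16A1 was at 0.0167 with TMM scaling, 0.0225 with scaling to total reads and -0.19 to 0.19 without single libraries. PFKP was at 0.10 and EGLN1 at -0.17 after removal of the length and GC trend, and without single libraries at -0.21 to 0.14 and -0.0944 to 0.15. Without single libraries HK1 ranged from -0.42 to 0.0425, PFKFB3 from -0.23 to 0.25, VEGFA from -0.0121 to 0.36, ADM from -0.45 to 1.36, EGLN3 from -0.36 to 0.0950, P4HA1 from -0.46 to 0.15 and ANKRD37 from -0.63 to 0.25. A library left alone in its group was taken to vary as the other group did. Depth limits SLC2A3, ANKRD37, HIF3A, EGLN2, PKLR, SLC16A7 and SLC2A4, which had under 30 reads in every library.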
